A study of Mus musculus with 30 samples.

Results

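The genes described here are the matrix metalloproteinases (Mmp), the secreted ADAMTS proteases (Adamts) and the tissue inhibitors of metalloproteinases (Timp1 to Timp4) of the mouse uterus. They were taken from the gene symbols of the array: every probe set with a single symbol of the form Mmp plus a number, Adamts plus a number, or Timp1 to Timp4. That gave 44 genes among 30142 genes tested, of which 22 were MMP genes, 18 were ADAMTS genes and 4 were TIMP genes, each with 1 probe set. Uterine RNA of female mice aged 21 days, before puberty, was measured on 30 whole-transcript arrays, 3 for each of 10 groups. KO mice lack a functional gene for estrogen receptor alpha, and the labels call the line Ex3aERKO. WT mice carry the normal gene. Mice of each genotype received 1 of 3 injections into the peritoneum. Estradiol (E2, 250 ng in 100 ul of saline) was given once, and the uterus was taken after 2 h or 24 h. The growth factor IGF1 was injected at 50 ug per dose in PBS, once for the 2 h group and 3 times, at 0, 8 and 16 h, for the 24 h group. Saline vehicle (100 ul) was given once, and the uterus was taken after 24 h, so comparisons of 2 h groups with vehicle also differ in the time since injection. Comparisons of the 24 h IGF1 groups with vehicle, E2 or 2 h IGF1 groups differ in the number of injections and the time since the last one. The carrier also differed, PBS for IGF1 and saline for vehicle. The strain is not named in the labels. Nothing in the labels says that the 3 arrays of a group came from separate animals, so the p-values below measure the spread between these arrays.

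MMPs and ADAMTS proteases are zinc enzymes that cut collagens, laminins and the large proteoglycans aggrecan and versican, and most are made as inactive precursors. TIMPs bind the active site of MMPs, and TIMP3 also blocks several ADAMTS enzymes. In the rodent uterus the matrix is remodelled as the tissue takes up water and grows under estrogen, through estrogen receptor alpha in epithelium and stroma.

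The values are deposited log2 signals. An array floor was set at the level of genes not expected in this tissue, the 95th percentile of 1083 olfactory receptor genes, and lay between 5.66 and 6.55. The probe set of Esr1, the estrogen receptor alpha gene, read 9.38 to 10.41 on the 15 KO arrays and 11.44 to 12.73 on the 15 WT arrays. It may lie partly outside the deleted sequence, so this is a limited check of genotype. The uterine markers Hoxa11 (8.09 to 11.31), Msx1 (8.17 to 11.03) and Pgr (12.72 to 16.51) were above the floor on every array. The WT vehicle array of replicate 1 stood apart: its Xist signal was 10.16, against 17.01 to 18.12 on the other 29 arrays, while the Y-linked Kdm5d read 5.13 on it and 4.67 to 5.25 elsewhere. Its array weight of 0.17 was also the lowest of the 30. Each count against WT vehicle was therefore also made without that array, and the values without it are given for the genes the results turn on. The KO array of replicate 2 taken 2 h after E2 had the highest mean over 8 macrophage markers in its group, 10.34, against 8.55 and 8.21 on the other arrays. Its mean over 10 neutrophil markers, 5 of them above the floor in that group, was also the highest there, 8.43, against 6.94 and 6.07.

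Of the 44 genes, 16 were above the floor in all 10 groups, 10 in some groups and 18 in none. The 18 genes never above it were Adamts7, Adamts13, Adamts14, Adamts16, Adamts17, Adamts18, Adamts20, Mmp1a, Mmp1b, Mmp8, Mmp9, Mmp13, Mmp20, Mmp21, Mmp24, Mmp25, Mmp27 and Mmp28. Differences between such signals are read with caution below. Mmp1a and Mmp1b are related genes and may share probes, which was not checked. In 17 comparisons, 29 of the 44 genes were called at least once by limma at a Benjamini-Hochberg adjusted p below 0.05. The matching share over all genes tested was not counted, and the comparisons share arrays, so these counts do not set the 44 genes apart. Mmp3, Mmp12 and Timp2 had signal above the floor but were called in none. Adamts9 was called in 10 comparisons, Adamts1 and Adamts12 in 9 each and Mmp19 in 8.

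**Figure D1:**
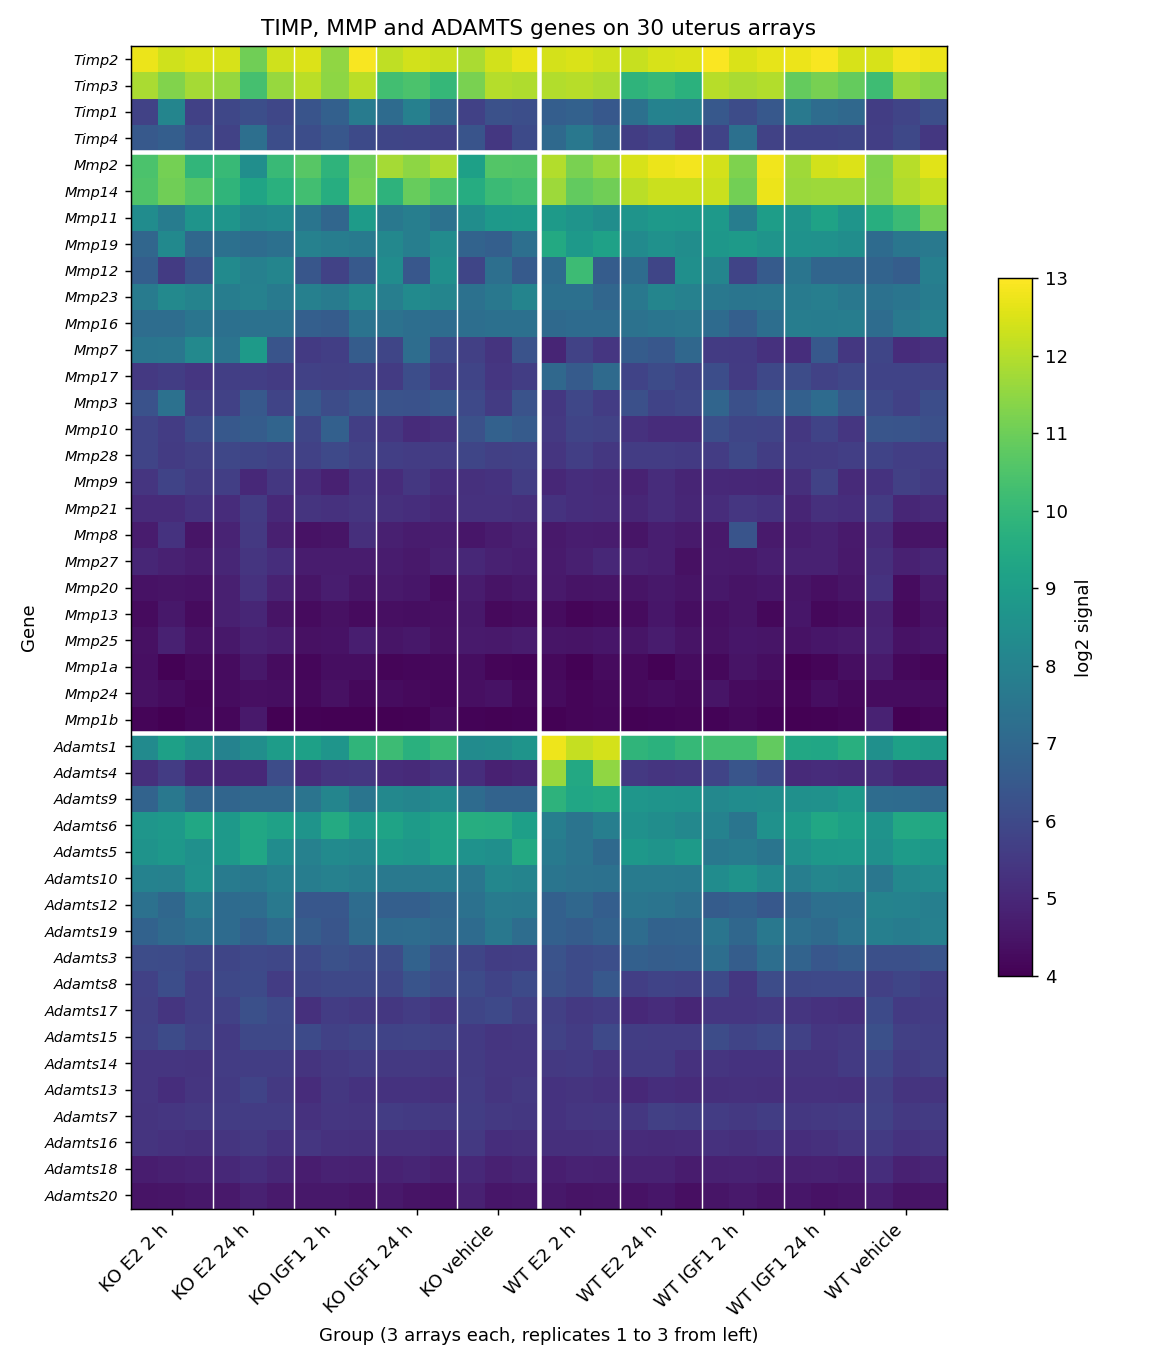
Log2 signal (colour, 4 to 13) of the 44 TIMP, MMP and ADAMTS genes (rows) on each of the 30 arrays (columns), KO groups left and WT groups right, with replicates 1 to 3 side by side in each group. Adamts4 stands out in WT uteri 2 h after E2, where it reached 9.44 to 11.65, and Mmp2 and Mmp14 are brighter in WT vehicle than in KO vehicle uteri.

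A few ADAMTS genes rose in WT uteri 2 h after E2, led by Adamts4, Adamts1 and Adamts9, and other ADAMTS genes fell. Of the 44 genes, 14 were called against WT vehicle, 7 higher and 7 lower, where 19% of all genes tested were called, 9.84% higher and 9.18% lower. ADAMTS genes made up 9 of the 14 (4 higher and 5 lower of 18), MMP genes 4 of 22 and TIMP genes 1 of 4. Adamts4 encodes an aggrecanase, an enzyme that cuts aggrecan between its globular domains. It read 11.65, 9.44 and 11.51 on the WT arrays 2 h after E2, against 5.23, 4.92 and 5.01 on the WT vehicle arrays. The vehicle signals were all below the floor and the E2 signals all far above it, although replicate 2 lay more than 2 log2 units under the other E2 arrays. The rise was at least 27.1-fold, with a log2 difference of 5.81 ± 0.36 (SE; limma adjusted p = 1.55e-11). Without replicate 1 of vehicle the difference was 5.90.

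Adamts1 encodes a versican-cleaving protease known from ovulation. Its signals were 12.78, 12.22 and 12.41 in WT uteri 2 h after E2, against 8.51, 9.11 and 8.93 in WT vehicle uteri. All 3 E2 arrays exceeded every vehicle array, and the log2 difference was 3.62 ± 0.27, or 12.3-fold (limma adjusted p = 4.33e-10). Adamts9, another versican-cleaving enzyme, read 9.83, 9.31 and 9.47 after E2, against 7.19, 7.16 and 7.06 with vehicle. Those groups did not overlap either, and the rise was 2.40 ± 0.17 (limma adjusted p = 2.81e-10). The Adamts1 and Adamts9 differences were 3.45 and 2.43 without replicate 1 of vehicle. Adamts8 was the fourth ADAMTS gene called higher, by 0.51 ± 0.15, and that call was lost in 4 of 6 leave-outs of 1 array, replicates 1 and 3 of either group (limma adjusted p = 0.0522 to 0.132, with 0.0622 without replicate 1 of vehicle).

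The promoters of Adamts1 and Adamts9 are shown because these were the largest rises at 2 h whose promoter is in the RefSeq table used here (GRCm38.p6, 250 bases before and 50 after the gene start, written 5′ to 3′ on the gene strand). Capitals mark a TATAAA box. Adamts1 lies on the minus strand of chromosome 16 (chr16:85803064-85803363) and Adamts9 on the minus strand of chromosome 6 (chr6:92943485-92943784).
Adamts1: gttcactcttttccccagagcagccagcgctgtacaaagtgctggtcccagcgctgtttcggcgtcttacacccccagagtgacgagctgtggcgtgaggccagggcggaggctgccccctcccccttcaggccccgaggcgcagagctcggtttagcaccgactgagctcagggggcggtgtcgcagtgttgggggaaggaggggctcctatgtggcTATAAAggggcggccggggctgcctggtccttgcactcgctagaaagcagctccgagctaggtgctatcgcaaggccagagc
Adamts9: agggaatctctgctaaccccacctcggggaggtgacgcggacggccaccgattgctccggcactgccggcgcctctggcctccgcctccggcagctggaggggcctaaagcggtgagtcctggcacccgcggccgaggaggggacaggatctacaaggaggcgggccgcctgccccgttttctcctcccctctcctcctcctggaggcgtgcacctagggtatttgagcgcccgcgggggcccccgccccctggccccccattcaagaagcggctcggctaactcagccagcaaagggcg
The Adamts1 box begins 32 bases before the start, and the Adamts9 window holds none. Both strands were searched for the palindromic estrogen response element (GGTCA, any 3 bases, TGACC), for its single arm GGTCA, which the full element contains, and for the AP-1 site TGANTCA. None of these was found in the windows of Adamts1, Adamts9 or Timp4, the third riser in the table. Over 32851 RefSeq promoters of the same length, 0.07% held the full element, 40.5% the single arm and 7.81% the AP-1 site. Among 33 promoters of 30 of the 44 genes, 0 held the full element, 7 the single arm (21.2%) and 8 the AP-1 site (24.2%). Letters missing from such a window say nothing of sites elsewhere.

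The ADAMTS genes that fell 2 h after E2 were others than those that rose. Adamts5 encodes the second major aggrecanase and lies next to Adamts1 on chromosome 16 in the RefSeq gene order. It read 7.68, 7.45 and 7.08 in WT uteri 2 h after E2, against 8.52, 8.94 and 8.80 in WT vehicle uteri. The groups did not overlap, and Adamts5 fell by 1.35 on the log2 scale (SE 0.23, limma adjusted p = 0.000102) while its neighbour rose. Adamts6, whose product acts on the microfibril matrix, fell by 1.42 (SE 0.26), Adamts12, which cleaves cartilage oligomeric matrix protein, by 1.15 (SE 0.19), Adamts19 by 1.11 (SE 0.18) and Adamts10, which binds fibrillin, by 0.62 (SE 0.17). Without replicate 1 of vehicle all 5 were still called, but Adamts10 was not called without replicate 2 or without replicate 3 of vehicle (-0.54 to -0.47, limma adjusted p = 0.0592 to 0.0896), nor with median centring or only the compared groups in the fit. In the same arrays 6 of 9 uterine stroma markers were called lower, among them Hoxa11 and Lum. Their mean signal averaged 9.46 in WT uteri 2 h after E2 (9.42 to 9.48) and 10.83 with vehicle, where the lowest array read 10.65, and all 9 markers were above the floor. In bulk tissue fewer cells of a type and less RNA per cell cannot be told apart, and the part of the stroma shift in these falls was not tested.

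**Figure D2:**
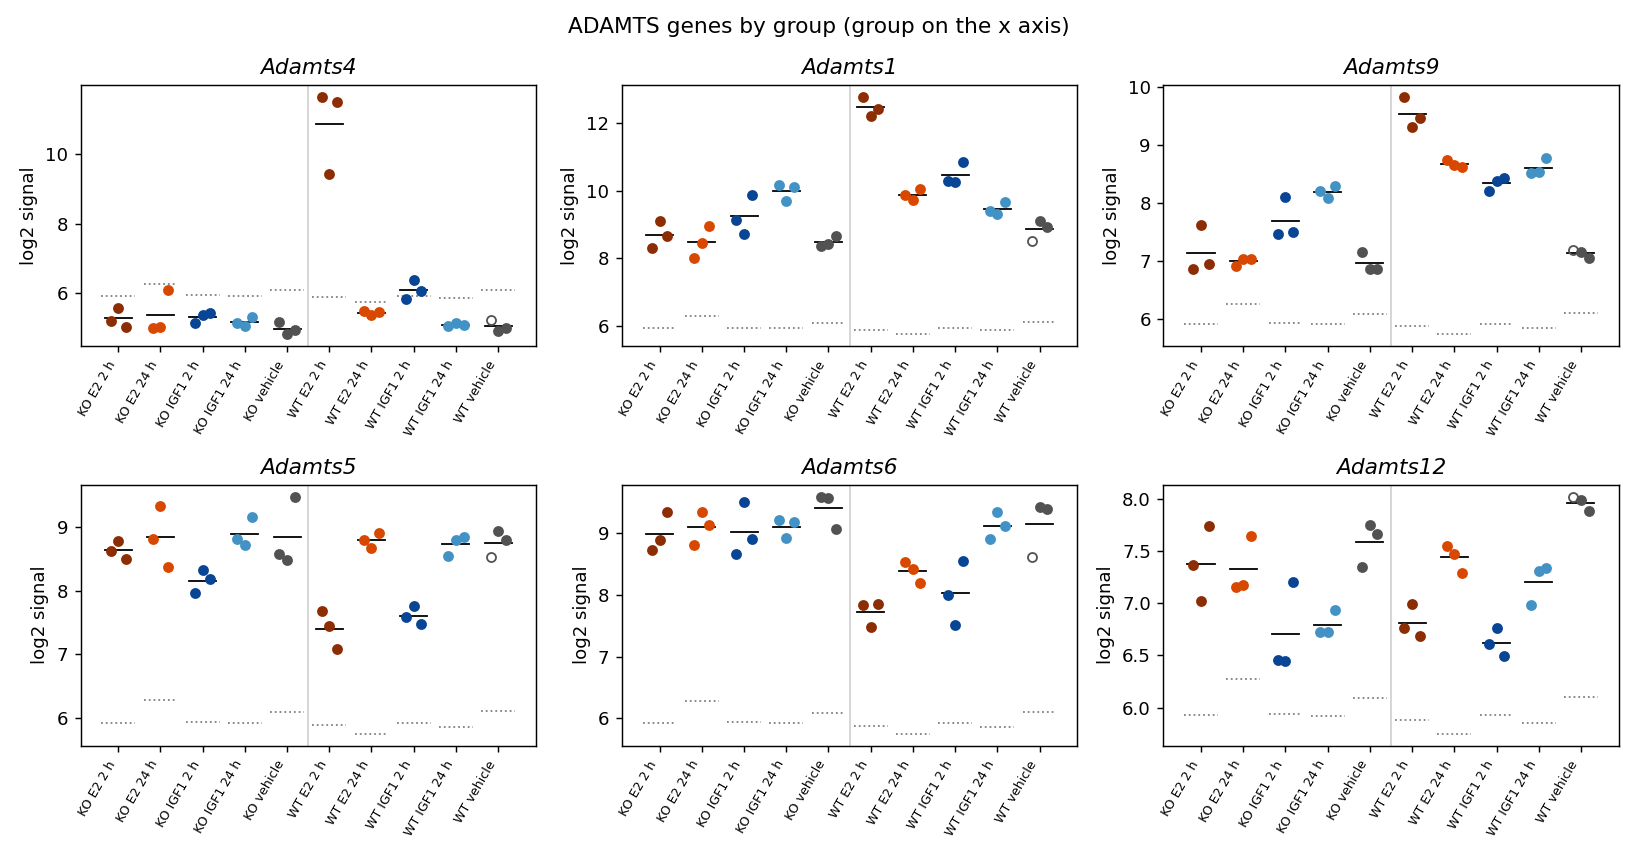
Log2 signal (y axis) of 6 ADAMTS genes in the 10 groups (x axis, KO groups left, WT groups right), where points are arrays, black bars are group means, dotted lines are the mean array floor and the hollow point is replicate 1 of WT vehicle. Adamts4, Adamts1 and Adamts9 were highest in WT uteri 2 h after E2, where Adamts5, Adamts6 and Adamts12 were below all 3 vehicle arrays.

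Among MMP genes, Mmp19, which cleaves basement membrane proteins, was the main gene to rise at 2 h. Its signal was 9.45, 8.88 and 9.14 in WT uteri 2 h after E2, against 7.14, 7.54 and 7.63 in WT vehicle uteri. The groups were clearly apart, with a difference of 1.72 ± 0.24 (limma adjusted p = 8.56e-06). Mmp17, a membrane-anchored enzyme, read 7.06, 6.60 and 7.10 after E2, against 5.80, 5.80 and 5.76 with vehicle. All vehicle signals were below the floor and all E2 signals above it, and the rise was at least 1.76-fold (log2 1.13 ± 0.15, limma adjusted p = 7.55e-06). Mmp11, or stromelysin-3, a stromal enzyme with little activity on the matrix itself, read 8.90, 8.67 and 8.40 after E2 and 9.64, 10.12 and 11.07 with vehicle. It fell by 1.62 (SE 0.38, limma adjusted p = 0.00327). Mmp10 fell by 0.59 (SE 0.21), a call that was lost whichever of the 6 arrays was left out (limma adjusted p = 0.0539 to 0.197) and with the replicate block (0.0517). The differences without replicate 1 of vehicle were 1.58 for Mmp19, 1.14 for Mmp17 and -1.94 for Mmp11, and all 3 were called.

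The E2 response at 2 h was tested for a difference between genotypes, taken as the KO change less the WT change. In KO uteri limma called 0 of the 44 genes 2 h after E2, where 0.365% of all genes were called. An unadjusted p under 0.05 was seen for 3 of the 44. The difference in change was called for 9 of the 44 genes, 4 higher and 5 lower, against 8% of all genes (3.61% higher and 4.39% lower). Adamts4 read 5.21, 5.59 and 5.04 in KO uteri 2 h after E2, against 5.17, 4.83 and 4.95 in KO vehicle uteri. All 6 KO signals were below the floor. Its change was 0.30 in KO and 5.81 in WT, a difference of -5.52 ± 0.50 (limma adjusted p = 6.30e-08). Adamts1 read 8.31, 9.10 and 8.66 in KO uteri after E2, against 8.36, 8.43 and 8.67 with KO vehicle, so those groups overlapped. The difference in its change was -3.41 ± 0.38 (limma adjusted p = 1.32e-06). For Adamts9 it was -2.22 ± 0.24, for Mmp17 -1.23 ± 0.22 and for Mmp19 -1.26 ± 0.34. Mmp19 read 6.96, 8.28 and 7.01 in KO uteri after E2, and the high value is replicate 2, the array with high macrophage and neutrophil markers. Without that array the Mmp19 difference was -1.69, and without replicate 1 of WT vehicle it was -1.11 and no longer called (limma adjusted p = 0.0511). The falls differed too. The change of Adamts5 was -0.21 in KO and -1.35 in WT (difference 1.14 ± 0.32, limma adjusted p = 0.0267), and the differences for Adamts12, Adamts19 and Adamts10 were 0.94, 0.89 and 0.88. These 4 calls were not firm. Of the 12 leave-outs of 1 array, Adamts5, Adamts12 and Adamts10 were lost in 6 each and Adamts19 in 7 (limma adjusted p = 0.0553 to 0.0885, 0.0511 to 0.0902, 0.0528 to 0.0959 and 0.0534 to 0.0786). Leaving out replicate 3 of the KO E2 group or replicate 1 of KO vehicle ended at least 3 of the 4 calls each, and Mmp19 was lost in 5 leave-outs. In this same difference 6 of 9 stroma markers were called higher, with a median of 1.27, and their part was not tested. Timp4, Mmp11, Adamts6, Adamts8 and Mmp10, all called in WT at 2 h, were not called for a difference between genotypes. For Mmp11 the estimate was 1.18 ± 0.54 (limma adjusted p = 0.231) and for Adamts6 the change was -0.42 in KO and -1.42 in WT.

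**Figure D3:**
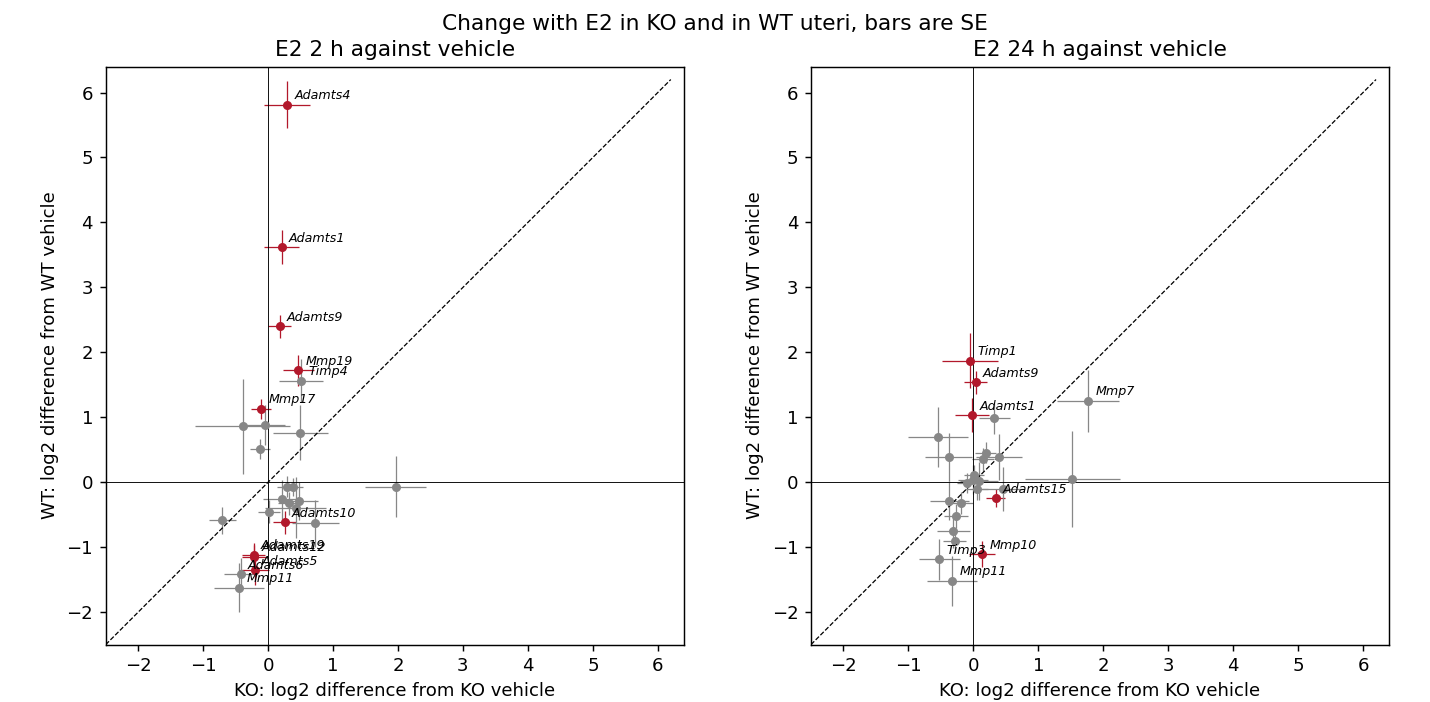
Change in log2 signal after E2 in KO uteri (x axis) and WT uteri (y axis) at 2 h (left) and 24 h (right) for the 26 genes above the floor in at least 1 group, with SE bars, and the dashed line marking equal change. Red points were called for a difference between genotypes; Adamts4 lies at 0.30 in KO and 5.81 in WT at 2 h.

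At 24 h the early rise of Adamts4 was gone, that of Adamts1 was smaller, and changes of Timp1 and Timp3 were called. Against WT vehicle, 17 of the 44 genes were called in WT uteri 24 h after E2, 6 higher and 11 lower, where 30.1% of all genes were called, 16.8% higher and 13.3% lower. Of the falls, 5 (Adamts13, Adamts14, Adamts16, Adamts17 and Mmp9) were between groups that were both at the floor. Without replicate 1 of vehicle the count was 13. Adamts4 was back below the floor, at 5.50, 5.37 and 5.46, and its fall against 2 h was at least 34.7-fold (log2 -5.42 ± 0.36, limma adjusted p = 3.90e-11). Adamts1 read 9.88, 9.73 and 10.05 at 24 h, above all 3 vehicle arrays (1.03 ± 0.27, limma adjusted p = 0.00476) and below all 3 arrays at 2 h. Adamts9 was 1.54 ± 0.17 above vehicle at 24 h. These differences without replicate 1 of vehicle were 0.86 for Adamts1 and 1.57 for Adamts9, both called. Adamts5 had returned to 8.80, 8.68 and 8.91, within the range of vehicle (8.52 to 8.94), and was 1.39 ± 0.23 higher at 24 h than at 2 h (limma adjusted p = 3.96e-05). Of 9 stroma markers, 8 were called higher at 24 h than at 2 h. Adamts6 and Adamts19 were still below vehicle, at differences of -0.76 and -0.90, and the Adamts6 call was lost in 4 of 6 leave-outs of 1 array, replicates 2 and 3 of either group (limma adjusted p = 0.0573 to 0.105). Mmp19 stayed 0.98 ± 0.24 above vehicle, and Mmp11 was below it, at a difference of -1.52 ± 0.38. Between 24 h and 2 h of E2 in WT uteri, 15 of the 44 genes differed by limma, 6 higher and 9 lower at 24 h, with 27.4% of all genes called (17% higher and 10.4% lower). Mmp14 was among the higher ones: 12.06, 12.29 and 12.26 at 24 h, against 11.68, 10.84 and 11.04 at 2 h (1.02 ± 0.37, limma adjusted p = 0.0399). That call was lost in 5 of 6 leave-outs of 1 array, all except replicate 1 at 2 h (limma adjusted p = 0.0610 to 0.151), and with median centring or quantile normalization. Mmp23, another membrane-bound family member, was 0.68 higher at 24 h, and Mmp17 was lower, at a difference of -1.01. Against vehicle, neither Mmp2 (12.45, 12.74 and 12.84 at 24 h of E2) nor Mmp14 was called, with differences of 0.70 ± 0.47 and 0.39 ± 0.37.

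Timp1 rose and Timp3 fell in WT uteri 24 h after E2. Timp1, a secreted inhibitor, read 7.31, 8.01 and 7.96 in WT uteri 24 h after E2, against 5.65, 5.85 and 6.15 in WT vehicle uteri. Vehicle signals lay at the floor, and the rise was at least 3.02-fold (log2 1.87 ± 0.43, limma adjusted p = 0.00165). Timp3, the inhibitor that stays bound to matrix, read 9.87, 10.04 and 9.76 in WT uteri 24 h after E2, against 10.20, 11.63 and 11.42 with vehicle. Every E2 array was below every vehicle array, the nearest being replicate 1. Timp3 fell by 1.19 (SE 0.31, limma adjusted p = 0.00559), and by 1.63 without replicate 1 of vehicle. At 2 h after E2 it had read 11.98, 12.03 and 11.89, so the 24 h level was below that at 2 h (-2.07 ± 0.31, limma adjusted p = 1.56e-05). Timp4 was called at 2 h instead. It read 7.09, 7.60 and 7.12 in WT uteri 2 h after E2, against 5.69, 5.96 and 5.47 with vehicle, and 5.63, 5.81 and 5.36 at 24 h. Only the 2 h arrays were all above the floor; the rise there was at least 2.19-fold (log2 1.57 ± 0.34, limma adjusted p = 0.00137). The Timp1 and Timp4 differences were 1.76 and 1.56 without replicate 1 of vehicle, both called. The mean of 4 fat cell markers was 7.01, 9.11 and 7.30 in WT uteri 2 h after E2, against 6.68 to 7.40 with vehicle. None of these markers was called there, and their part in the Timp4 rise was not tested. Timp2, which also takes part in the activation of pro-MMP2, had group means between 11.94 and 12.70 and was called nowhere; its change 24 h after E2 in WT was -0.29 ± 0.30. Uterine epithelium markers rose in the same 24 h arrays: 9 of 10 were called higher, with a mean signal of 11.81 to 11.82, against 8.93 to 9.39 with vehicle. The means of 9 stroma markers (11.69 to 11.74, against a vehicle mean of 10.83) and of 7 smooth muscle markers (14.49 to 14.71, against 12.87 to 13.79) were also above every vehicle array, with 3 and 2 called higher and 1 stroma marker called lower. The part of these lists in the TIMP changes was not tested.

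**Figure D4:**
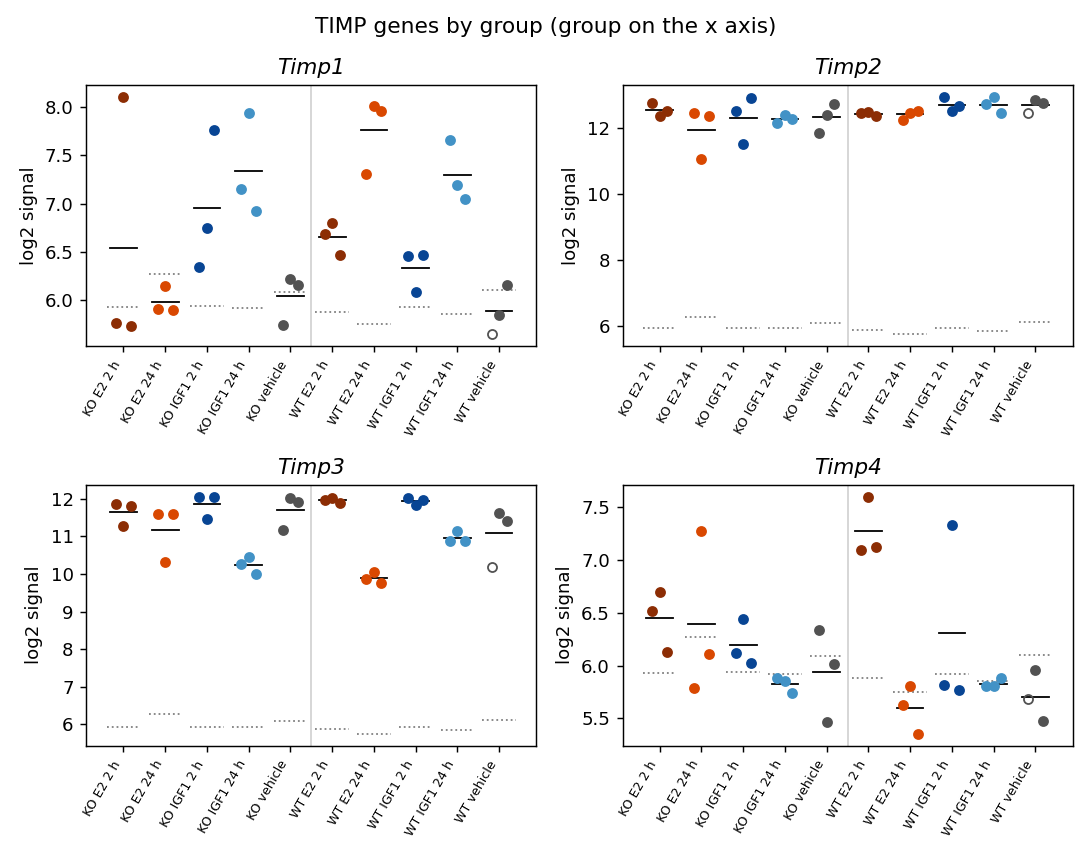
Log2 signal (y axis) of the 4 TIMP genes in the 10 groups (x axis, KO groups left, WT groups right), where points are arrays, black bars group means, dotted lines the mean array floor and the hollow point replicate 1 of WT vehicle. Timp1 was highest 24 h after E2 in WT (7.31 to 8.01), Timp3 was lowest there (9.76 to 10.04) and 24 h after IGF1 in KO (10.01 to 10.46), and Timp2 group means stayed within 11.94 to 12.70.

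In the remaining groups few TIMP differences were called. Timp1 read 7.65, 7.19 and 7.05 in WT uteri 24 h after IGF1, above all 3 vehicle arrays, but the difference of 1.41 ± 0.43 was not called (limma adjusted p = 0.0604). In KO uteri it read 7.15, 7.93 and 6.92 at 24 h after IGF1, against 5.74, 6.22 and 6.16 with vehicle, without overlap, a difference that is described with the other IGF1 results, and 6.34, 6.75 and 7.76 at 2 h (0.91 ± 0.43, limma adjusted p = 0.227). In KO uteri 2 h after E2 it read 5.77, 8.11 and 5.73, and the high array is replicate 2, the one with high macrophage and neutrophil markers. Timp4 read 6.51, 6.69 and 6.13 in KO uteri 2 h after E2, against 6.34, 5.47 and 6.01 with KO vehicle, which overlapped. Its change was 0.51 ± 0.34 in KO and 1.57 ± 0.34 in WT, and the difference of -1.06 ± 0.47 was not called (limma adjusted p = 0.213). Between KO vehicle and WT vehicle none of the 4 was called, with differences of 0.15 ± 0.43 for Timp1, -0.38 ± 0.30 for Timp2, 0.62 ± 0.31 for Timp3 and 0.23 ± 0.34 for Timp4. Timp2 was the steadiest of the 4, with a range of 0.76 over the 10 group means, against 2.07 for Timp3, 1.87 for Timp1 and 1.67 for Timp4.

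In KO uteri 24 h after E2, limma called 0 of the 44 genes and 0 of all genes, and 6 of the 44 had an unadjusted p under 0.05. Replicate 2 of that group had an array weight of 0.26 and the highest floor of all arrays, 6.55. Its smooth muscle marker mean was 11.24, against 13.12 and 12.88 on the other arrays of the group. Its epithelium marker mean was 9.41, against 10.37 and 10.65. The difference in change between KO and WT was called for 10 of the 44 genes (22.7%), 7 higher and 3 lower. That was near the background of 22.1% of all genes, 9.96% higher and 12.2% lower. Timp1 read 5.91, 6.15 and 5.90 in KO uteri 24 h after E2, against 5.74, 6.22 and 6.16 with KO vehicle, an overlap. Its difference in change was -1.93 ± 0.60 (limma adjusted p = 0.0253), Adamts9's was -1.50 ± 0.24 (0.000117) and Adamts1's was -1.05 ± 0.38 (0.0473). Mmp10, or stromelysin-2, read 6.48, 6.61 and 6.90 in KO uteri 24 h after E2, against 6.23, 6.79 and 6.57 with KO vehicle. In WT it was below the floor at 5.27, 5.15 and 5.14 after E2, against 6.36, 6.33 and 6.19 with vehicle. The difference was 1.24 ± 0.29 (limma adjusted p = 0.00384). For Timp3 the change was -0.53 in KO and -1.19 in WT, and the difference of 0.66 ± 0.44 was not called (limma adjusted p = 0.273). Without replicate 1 of WT vehicle 3 differences were called, those of Adamts9, Mmp10 and Adamts17, and the Timp1 and Adamts1 calls were lost (limma adjusted p = 0.0596 and 0.132). Over all 12 leave-outs of 1 array the Timp1 call was lost in 5 and the Adamts1 call in 9. The remaining call was that of Adamts15 (0.59), which was above the floor only in WT uteri 2 h after IGF1 and was lost in 8 leave-outs. Those of Adamts13, Adamts14, Adamts16, Adamts17 and Mmp27 were between signals at the floor in every group.

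Without hormone, the genotypes differed in 3 MMP genes. KO vehicle uteri had 3 of the 44 genes called against WT vehicle uteri, all lower, where 2.92% of all genes were called and 1.3% were called lower. Mmp2, or gelatinase A, read 9.11, 10.58 and 10.55 in KO vehicle uteri, against 11.30, 12.04 and 12.60 in WT vehicle uteri. Every KO array was below every WT array, and Mmp2 was lower by 3.74-fold (log2 -1.90 ± 0.47, limma adjusted p = 0.0215). Mmp14 encodes the membrane enzyme that activates pro-MMP2 at the cell surface. It read 9.58, 10.12 and 10.28 in KO vehicle uteri and 11.35, 11.92 and 12.19 in WT vehicle uteri, again without overlap (log2 -1.83 ± 0.37, limma adjusted p = 0.00438). Mmp11 read 8.40, 8.82 and 8.91 in KO vehicle uteri, against 9.64, 10.12 and 11.07 in WT vehicle uteri (log2 -1.56 ± 0.38, limma adjusted p = 0.0215). The 3 calls held without replicate 1 of WT vehicle, at -2.24, -2.06 and -1.88. Mmp14 was called whichever of the 6 arrays was left out. Mmp2 was not called without replicate 1 of KO vehicle (limma adjusted p = 0.170) or without replicate 2 or 3 of WT vehicle (0.0664 and 0.135). Mmp11 was called in 5 comparisons, all of them against WT vehicle, where its group mean was the highest of the 10 groups, at 10.28. Between the vehicle groups Mmp11 was not called without replicate 1 or 2 of KO vehicle or replicate 3 of WT vehicle (0.108, 0.0663 and 0.167). Here 5 of 10 uterine epithelium markers were called higher, with a mean of 10.06 to 10.47 in KO vehicle uteri and 8.93 to 9.39 in WT vehicle uteri. Of 9 stroma markers limma called 0, with 4 at an unadjusted p under 0.05 and a median of -0.62. The mean of 8 macrophage markers was 7.57 to 8.50 in KO vehicle uteri and 8.80 to 9.11 in WT vehicle uteri, without overlap, with 0 called by limma and 4 at an unadjusted p under 0.05. The part of these lists in the MMP differences was not tested. None of the 18 ADAMTS genes was called between the vehicle groups, with 4 at an unadjusted p under 0.05, and none of the 4 TIMP genes.

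**Figure D5:**
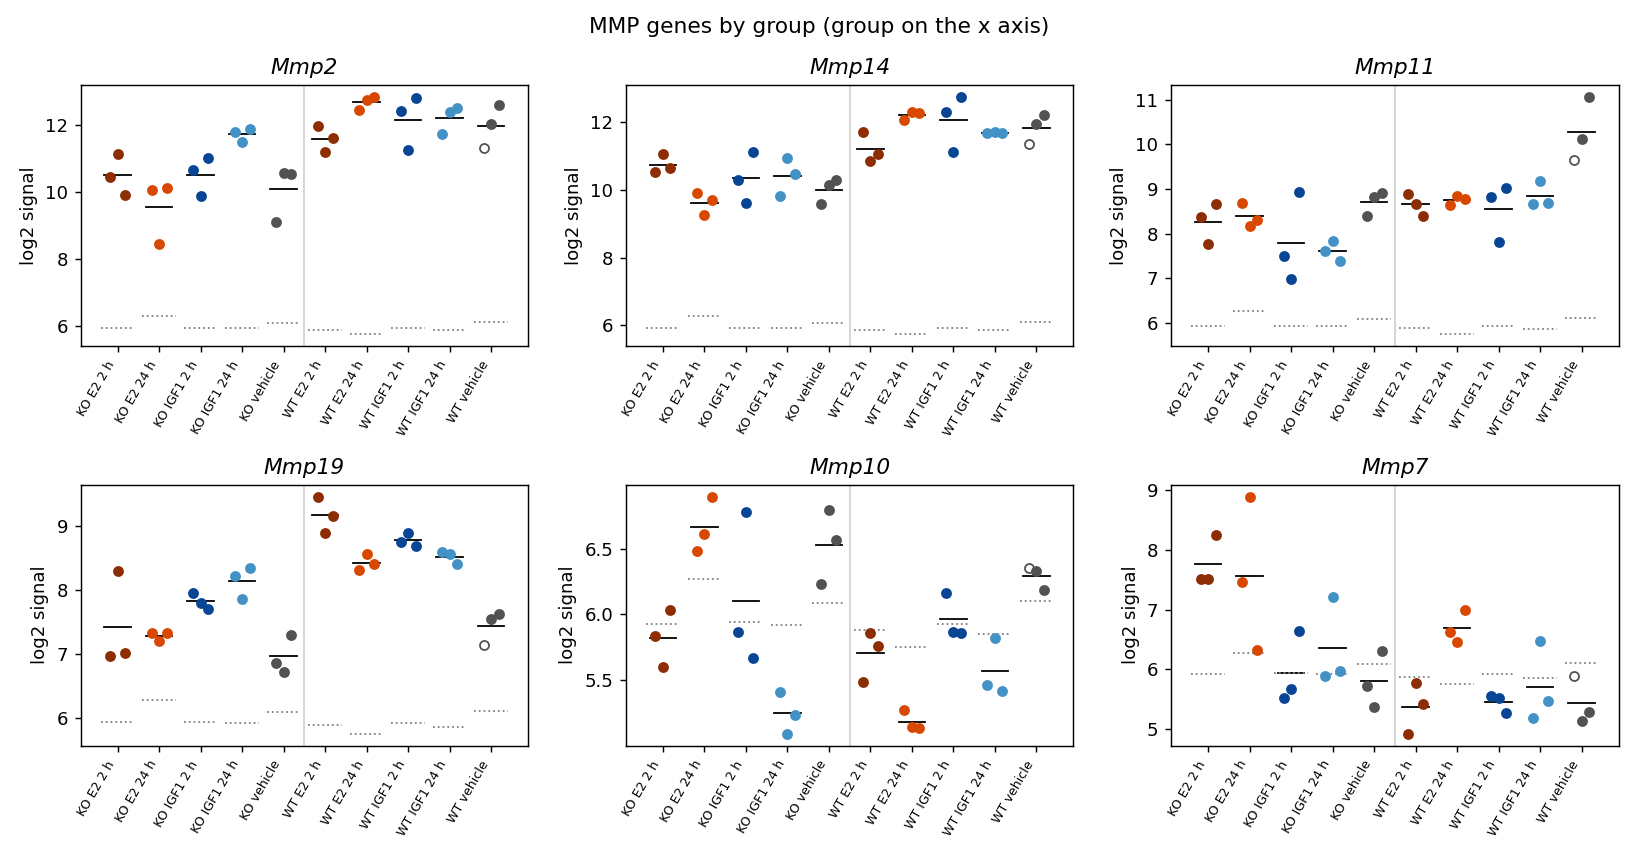
Log2 signal (y axis) of 6 MMP genes in the 10 groups (x axis, KO groups left, WT groups right), where points are arrays, black bars group means, dotted lines the mean array floor and the hollow point replicate 1 of WT vehicle. Mmp2 and Mmp14 were lower in KO vehicle than in WT vehicle uteri (log2 -1.90 and -1.83), and Mmp7 had its highest group mean, 7.76, in KO uteri 2 h after E2.

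In WT uteri IGF1 raised Adamts1, Mmp19, Adamts9 and Adamts3 at 2 h and lowered several of the other genes. Against WT vehicle, 12 of the 44 genes were called, 5 higher and 7 lower, where 17.2% of all genes were called (9.54% higher and 7.64% lower). The vehicle arrays are the same as in the comparisons of E2. Adamts1 read 10.28, 10.27 and 10.85 in WT uteri 2 h after IGF1, above the vehicle range of 8.51 to 9.11 (1.61 ± 0.27, limma adjusted p = 0.000154). Mmp19 rose by 1.34 ± 0.24, Adamts9 by 1.20 ± 0.17 and Adamts3, a procollagen-processing enzyme, by 0.81 ± 0.16. Adamts4 read 5.84, 6.38 and 6.07, with 2 of 3 arrays above the floor, and its call (1.05 ± 0.36, limma adjusted p = 0.0437) was lost whichever of the 6 arrays was left out (0.0554 to 0.155). Adamts5 fell by 1.14, Adamts12 by 1.34, Adamts6 by 1.12 and Mmp11 by 1.72. Mmp16, a membrane-type enzyme, fell by 0.53 with overlapping groups and was not called in 3 of 6 leave-outs (limma adjusted p = 0.0777 to 0.200), and the falls of Adamts14 and Mmp9 were at the floor. The count was 10 without replicate 1 of vehicle, where Adamts1 was at 1.44 and Mmp19 at 1.19. In these arrays the mean of 7 smooth muscle markers was 13.97 to 14.56, against 12.87 to 13.79 with vehicle, with 2 called higher, and 5 of 10 epithelium markers were called higher. Their part was not tested.

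Set directly against IGF1, E2 gave higher Adamts4, Adamts1, Adamts9 and Mmp17 at 2 h in WT uteri. The differences were 4.77 ± 0.36, 2.01 ± 0.27, 1.20 ± 0.17 and 1.03 ± 0.15, the Adamts4 one being 27.2-fold (limma adjusted p = 8.12e-10). Adamts10, Adamts3 and Adamts19 were lower with E2 than with IGF1, by log2 differences of -1.01, -0.88 and -0.62, and the Adamts19 call was lost in 5 of 6 leave-outs (limma adjusted p = 0.0654 to 0.207). That made 7 of the 44 genes called, 4 higher and 3 lower with E2, against 5.57% of all genes (2.8% and 2.77%). Stroma markers were also lower with E2 than with IGF1 at 2 h, 6 of 9 by call, and their part was not tested. At 24 h the one gene called between E2 and IGF1 in WT uteri was Timp3, where 10.1% of all genes were called and 2.49% called lower. It read 9.87, 10.04 and 9.76 with E2, against 10.87, 11.15 and 10.87 with IGF1. The groups did not overlap (-1.07 ± 0.31, limma adjusted p = 0.0284), but the call was lost whichever of the 6 arrays was left out. In this comparison E2 had been given once and IGF1 3 times, the last at 16 h.

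After 24 h of IGF1, 5 of the 44 genes were called in WT uteri, where 4.28% of all genes were, 3.32% higher and 0.962% lower. Adamts9 (8.52, 8.54 and 8.78, against 7.19, 7.16 and 7.06 with vehicle) and Mmp19 were higher, by 1.48 ± 0.17 and 1.08 ± 0.24. Mmp11, Adamts12 and Mmp10 were lower by log2 differences of -1.43, -0.76 and -0.72. Without replicate 1 of vehicle only Adamts9 and Mmp11 were called, and Mmp11 was itself lost in the 4 leave-outs of replicate 1 or 3 of IGF1 and replicate 2 or 3 of vehicle (-1.51 to -1.03, limma adjusted p = 0.0501 to 0.156). Adamts12 was lost in 3 of 6 leave-outs, Mmp10 in 5 and Mmp19 in 2, so Adamts9 was the one gene called in all 6. The stroma marker mean was 11.28 to 11.63 in these arrays, against a vehicle mean of 10.83, and that of smooth muscle 14.51 to 14.90, against 12.87 to 13.79, with 2 of each list called higher. Their part was not tested. Compared with 2 h of IGF1, 7 of the 44 genes were called at 24 h, against 14.5% of all genes, 7.94% higher and 6.57% lower. Adamts5, Adamts6, Mmp16 and Adamts12 were higher at 24 h (1.12, 1.10, 0.77 and 0.58), and Timp3 and Adamts15 lower (-0.98 and -0.42). The Timp3 call was lost whichever of the 6 arrays was left out (limma adjusted p = 0.0545 to 0.114), and those of Adamts15 and Adamts12 were lost in 5 of 6 leave-outs. Adamts1 was lower too, with means of 9.46 at 24 h and 10.47 at 2 h (SE 0.27, limma adjusted p = 0.0112), and that call was lost without replicate 3 at 2 h or replicate 2 at 24 h (0.0507 to 0.0773).

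In KO uteri 24 h after IGF1, Adamts1, Adamts9 and Mmp19 rose and Timp3 and Mmp10 fell, and these calls held whichever array was left out. At 2 h 4 of the 44 genes were called against KO vehicle, 2 higher and 2 lower, where 7.13% of all genes were (4.19% higher and 2.95% lower). Mmp19 was higher by 0.86 ± 0.24 and Adamts9 by 0.72 ± 0.17, and Adamts12 and Adamts19 fell by 0.89 and 0.61. Of 6 leave-outs of 1 array, the calls of Mmp19 and Adamts19 were lost in 4 each, that of Adamts9 in 2 and that of Adamts12 in 1 (limma adjusted p = 0.0770 to 0.157, 0.0549 to 0.189, 0.0527 to 0.0963 and 0.0678). All 4 were lost when the fit held the KO IGF1 2 h and KO vehicle arrays alone. In these arrays 2 of 7 smooth muscle markers were called higher, and their part was not tested. At 24 h, after 3 injections, 9 were called, 6 higher and 3 lower, where 13.6% of all genes were (9.28% higher and 4.35% lower). Mmp2 read 11.79, 11.48 and 11.89 in KO uteri 24 h after IGF1, against 9.11, 10.58 and 10.55 in KO vehicle uteri. The groups did not overlap (1.65 ± 0.47, limma adjusted p = 0.0192), and without replicate 1 of KO vehicle, the low one, the difference was 1.16 and not called (limma adjusted p = 0.135). The Mmp2 call was also lost without replicate 1 or 3 of the IGF1 group (limma adjusted p = 0.0528 to 0.135 over the 3 leave-outs). Mmp14 read 9.82, 10.92 and 10.44, against 9.58, 10.12 and 10.28 with KO vehicle, and was not called (0.40 ± 0.37). Adamts1 read 10.18, 9.70 and 10.10, against 8.36, 8.43 and 8.67 with KO vehicle (1.51 ± 0.27, limma adjusted p = 0.000536). Adamts9 rose by 1.23 ± 0.17, Mmp19 by 1.18 ± 0.24 and Adamts3 by 0.66 ± 0.16, the Adamts3 call being lost without replicate 2 of the IGF1 group (limma adjusted p = 0.0707). Timp1 was at least 2.19-fold higher (limma adjusted p = 0.0441), but that call was lost whichever of the 6 arrays was left out (0.0512 to 0.206). Timp3 read 10.28, 10.46 and 10.01 in KO uteri 24 h after IGF1, against 11.17, 12.01 and 11.91 with KO vehicle. It fell by 1.45 (SE 0.31, limma adjusted p = 0.00276), Mmp10 fell by 1.28 (at least 1.53-fold) and Adamts12 by 0.79. Stroma markers were called too, 5 of 9 higher and 1 lower, and their part was not tested. E2 and IGF1 were not tested against each other in KO uteri.

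For IGF1, limma called no difference in change between KO and WT in any of the 44 genes at 2 h or 24 h, where 4 and 2 of all 30142 genes were called (0.0133% and 0.00664%). At an unadjusted p under 0.05 there were 2 of the 44 genes at 2 h and 5 at 24 h. The intervals are wide. For Adamts1 the difference in change was -0.86 at 2 h (95% interval -1.64 to -0.08) and 0.90 at 24 h (0.12 to 1.68). For Timp3 at 24 h it was -1.33 (-2.25 to -0.42) and for Mmp2 1.42 (0.06 to 2.78), none of which passed adjustment over all genes.

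Mmp7, or matrilysin, an enzyme secreted by epithelia, had a pattern of its own. It read 7.51, 7.52 and 8.25 in KO uteri 2 h after E2 and 7.47, 8.90 and 6.32 at 24 h, against 5.71, 5.36 and 6.31 in KO vehicle uteri. Both sets were above the 3 vehicle arrays, replicate 3 at 24 h only just, but the changes of 1.96 ± 0.47 and 1.77 ± 0.47 did not pass adjustment (limma adjusted p = 0.0695 and 0.162). In WT uteri it read 4.92, 5.77 and 5.42 at 2 h, 6.62, 6.46 and 6.99 at 24 h and 5.88, 5.14 and 5.29 with vehicle, and the 24 h difference from vehicle was called (1.25 ± 0.47, limma adjusted p = 0.0474). That call was lost in 5 of 6 leave-outs of 1 array (limma adjusted p = 0.0672 to 0.146) and held without replicate 1 of vehicle (1.48). The difference in change at 2 h, KO minus WT, was 2.03 ± 0.67 (limma adjusted p = 0.0628). The mean of Mmp7 was above the floor in only 5 of the groups. Both vehicle groups and the WT group 2 h after E2 had means below it, so the sizes of these changes are not known. Mmp12, or macrophage elastase, varied widely between arrays of a group and was called in no comparison. In WT uteri 2 h after E2 it read 7.16, 10.17 and 6.63, and in KO uteri 24 h after E2 8.30, 7.91 and 8.08, against 5.88, 7.29 and 6.54 with KO vehicle (1.53 ± 0.74, limma adjusted p = 0.402). Mmp3, or stromelysin-1, had group means of 5.67 to 6.79 and its highest array, at 7.34, was the KO replicate 2 taken 2 h after E2. Mmp9, or gelatinase B, was above the floor in no group.

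A run of 10 MMP genes lies side by side on chromosome 9 in the RefSeq order: Mmp13, Mmp12, Mmp1b, Mmp3, Mmp1a, Mmp10, Mmp8, Mmp27, Mmp20 and Mmp7. Of these, Mmp12, Mmp3, Mmp10 and Mmp7 were above the floor in at least 1 group. Their promoter stretches are shown because a TGANTCA site followed by a TATAAA box on the gene strand was found in 8 of the 33 promoters of the 44 genes (24.2%), all 8 in this run, against 0.581% of all 32851 promoters. Capitals mark the AP-1 letters and then the TATAAA letters (GRCm38.p6, plus strand). The marked TATAAA begins at base -29 from the gene start for Mmp10, -26 for Mmp7 and -7 for Mmp3. For Mmp12 it begins at base 5, past the annotated start. Mmp12 and Mmp7 each have another listed promoter that holds neither motif.
Mmp12 (chr9:7347325-7347388): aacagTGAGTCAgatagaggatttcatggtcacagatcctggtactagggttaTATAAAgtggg
Mmp3 (chr9:7445771-7445825): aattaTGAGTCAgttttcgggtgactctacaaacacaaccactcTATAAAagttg
Mmp10 (chr9:7502274-7502323): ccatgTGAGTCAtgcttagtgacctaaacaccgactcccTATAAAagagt
Mmp7 (chr9:7692022-7692074): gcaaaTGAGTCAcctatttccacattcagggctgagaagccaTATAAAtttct
The letters are a description of these windows, and neighbouring copies share ancestry, so the genes are not independent. The TATAAA search was added after the other motifs had been seen. Their signals did not move together: 24 h after E2 in WT uteri Mmp10 was called lower and Mmp7 higher, and the changes of Mmp3 and Mmp12 were 0.02 ± 0.30 and 0.05 ± 0.74.

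Genes that act with these proteases were counted from lists of related genes. Of 20 matrix substrates, limma called 11 higher and 3 lower in WT uteri 24 h after E2, with Col1a1 (3.34 ± 0.22), Col1a2 (2.49 ± 0.23) and Col3a1 (2.29 ± 0.30) rising most. Over all genes 16.8% were called higher and 13.3% lower there. At 2 h it called 3 higher and 4 lower, where 9.84% and 9.18% of all genes were, and Col3a1 fell by 2.41. After IGF1 8 were higher at 2 h and 6 at 24 h, with 9.54% and 3.32% of all genes called higher, and at 24 h Fn1, fibronectin, rose by 2.26 ± 0.48. Col1a1 and Col3a1 are also in the stroma marker list. In KO uteri 0 of 20 were called at either time after E2, where 0.365% of all genes were called at 2 h and 0 at 24 h. In the same genotype 9 were higher and 1 lower 24 h after IGF1, with 9.28% and 4.35% of all genes called. The largest of those was Vcan, versican, a substrate of Adamts1 and Adamts9, at 12.06 with IGF1 and 8.54 with KO vehicle (3.52 ± 0.34, limma adjusted p = 2.49e-06).

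Of 12 activating proteases and their inhibitors, 3 (25%) were called higher and 0 lower in WT uteri 2 h after E2, where 19% of all genes were called. They were Plau, the urokinase plasminogen activator (2.15 ± 0.25), its receptor Plaur (1.41 ± 0.15) and Furin, the convertase that removes the prodomain of ADAMTS and membrane-type MMP precursors. At 24 h 4 were higher and 1 lower (41.7% of the list, against 30.1% of all genes), including the cathepsin gene Ctsk (1.81 ± 0.26) and Plat, which fell by 1.33. Plat was also the 1 gene of the list of 12 called between the vehicle groups (-2.73 ± 0.44 in KO against WT), where 2.92% of all genes were called. Of 18 other inhibitors and binding partners, 2 were higher and 6 lower 24 h after E2 in WT (44.4%, against the same 30.1%), led by the broad protease inhibitor A2m at 3.15 ± 0.29 (at least 7.53-fold). Thbs1, thrombospondin-1, rose by 2.78 ± 0.44 in WT uteri 2 h after IGF1 and was lower in KO vehicle than in WT vehicle uteri (-2.21 ± 0.44). Of 13 other metalloproteases of the clan, 4 were higher and 3 lower 24 h after E2 in WT (53.8%, against 30.1% of all genes), where Adam9 rose by 1.76 ± 0.23. Tll1 and Adam28 were the 2 called between vehicle groups, where 2.92% of all genes were, higher in KO by 1.65 ± 0.22 and 1.61 ± 0.27.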

How the data were processed

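The authors deposited log2 values for 72688 probe sets on 30 arrays, made from 300 ng of RNA each with a whole-transcript labelling kit, per the labels. The sources used here do not state how the arrays were normalized or summarized, nor the array's build. The highest deposited value was 19.93. Probe sets with 1 listed symbol (30604) were kept, 2146 with several and 39938 not listed were left out, 827 symbols were updated, and the probe set of highest mean stood for each of 30142 genes. The 44 genes, the lists of related genes and markers, and the promoter motifs were chosen with earlier results of these data known. One mean per group was fitted to the 30 arrays with limma 3.58.1 under R 4.3.3 (20 residual and 3.66 prior degrees of freedom; files read with the data.table package, version 1.17.8), a moderated test on the log2 scale, with Benjamini-Hochberg adjustment over all 30142 genes within each of 17 comparisons and calls at adjusted p below 0.05. Differences between genotypes were tested as the KO change less the WT change. Folds written with "at least" have a dimmer group at or below the array floor, and take for it the higher of floor and signal on each array. The script was tested on simulated data.

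Named genes were up to 8 rises and 8 falls per comparison that were called, at least 2-fold and without overlap of the arrays compared, plus all TIMP genes, Mmp2, Mmp3, Mmp7, Mmp9, Mmp11, Mmp14, Adamts1, Adamts4 and Adamts5. Other genes given with values, among them Mmp12 and called genes under 2-fold, were chosen after their values were seen. Of related genes, the 3 largest called changes per WT comparison with vehicle and between vehicle groups were eligible; Furin and Vcan were chosen after their values were seen. Replicate numbers are shared between groups in the labels. Deviations of arrays of the same number correlated at 0.43, 0.15 and 0.30 between KO vehicle and WT vehicle. In no other comparison did all 3 exceed 0.1. The fit behind the values given had no pairing term, for this comparison too. The replicate block, a term for replicate number over all groups, was run as an alternative. Alternatives were array weights, median centring, quantile normalization, removal of dim genes, the mean of all probe sets, a fit of only the compared groups, the replicate block and leaving out each array. The number of arrays limits the precision. Promoters came from RefSeq (GRCm38.p6), which here held 30 of the 44 genes.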

Additional observations from a re-analysis of the deposited data

Results flagged for a closer look

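Differences in the E2 response between KO and WT, as the log2 change in KO minus that in WT, were called by limma for 19 gene and time pairs. At 2 h these were 9 of the 44 genes (20.5%), against 8% of all genes. At 24 h they were 10 of the 44 (22.7%), near the 22.1% of all genes. At 2 h the change in KO was smaller than the rise in WT for Adamts4 (-5.52; change 0.30 in KO and 5.81 in WT), Adamts1 (-3.41), Adamts9 (-2.22), Mmp19 (-1.26) and Mmp17 (-1.23). It was smaller than the fall in WT for Adamts5 (1.14), Adamts12 (0.94) and Adamts19 (0.89), and for Adamts10 (0.88) the changes had opposite signs, 0.26 in KO and -0.62 in WT.

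At 24 h the changes in KO and in WT differed for Timp1 (-1.93; -0.05 in KO and 1.87 in WT), Adamts9 (-1.50), Adamts1 (-1.05) and Mmp10 (1.24; 0.13 in KO and -1.10 in WT). The smaller differences were those of Adamts17 (0.81), Mmp27 (0.65), Adamts15 (0.59), Adamts13 (0.49), Adamts14 (0.43) and Adamts16 (0.39). These 6 genes were at the floor in all 4 groups that enter the difference, so its size is not known, and Adamts15 had a mean above the floor only in WT uteri 2 h after IGF1.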

How the results depend on the processing

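None of the 113 called differences reversed its direction under any of the settings tried. The settings reuse the same arrays and uncalled differences were not followed, so this is a limited check. The replicate block left every count of called genes within 1.5 times: 14 for WT E2 2 h against vehicle, 4 for WT IGF1 24 h (5 without the block) and 3 for KO vehicle against WT vehicle. It ended 2 of 113 single calls, both of Mmp10, in WT 2 h after E2 and 24 h after IGF1. Array weights also ended 2 of 113. Other settings ended more of the 113: median centring 24, quantile normalization 22, and dropping the arrays of all other groups 33. Omitting both arrays of lowest weight ended 19 of the 70 calls checked. When each array was left out in turn, the call was lost in 215 of 792 checks. The mean of all probe sets left the values of the 44 genes unchanged, since each has 1 probe set. That it ended no call is therefore little check on them. For WT IGF1 24 h the count of 5 became 10 with array weights, 3 with median centring, 2 with only the compared groups and 2 without the arrays of lowest weight (replicate 1 of WT vehicle and replicate 2 of KO E2 24 h), an alternative chosen after seeing the data. For KO vehicle against WT vehicle the count of 3 became 6 with array weights and 1 with only the compared groups. For KO E2 2 h against vehicle it was 1 with array weights. For KO IGF1 2 h the count of 4 became 0 with only the compared groups and 7 with quantile normalization. For the E2 2 h difference between KO and WT the count of 9 became 15 with array weights and 5 with quantile normalization. At 24 h the count of 10 became 6 with median centring, 5 without dim genes, 4 with only the compared groups, 4 with quantile normalization and 5 without the same 2 arrays. For WT E2 against IGF1 the 2 h count of 7 became 11 with array weights, and the 24 h count of 1 became 3 with array weights, 0 with median centring and 4 with only the compared groups. For WT E2 24 h against 2 h the count of 15 became 23 with array weights. Removal of dim genes took out 18 of the 44 genes, among them Adamts13, Adamts14, Adamts16, Adamts17 and Mmp27. It ended 0 of the 100 calls of the genes kept. Fits of only the compared groups hold fewer arrays. The causes of the other changes in count were not tested.

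Leaving out 1 array at a time gave 11 to 14 genes for WT E2 24 h against vehicle (lowest without WT E2 24 h replicate 3), 1 to 5 for WT IGF1 24 h (lowest without WT IGF1 24 h replicate 1), 1 to 3 for KO vehicle against WT vehicle, 0 to 1 for KO E2 24 h (1 without its replicate 3) and 1 to 6 for KO IGF1 2 h (lowest without its replicate 1). The range was 5 to 9 for the E2 2 h difference between genotypes (lowest without KO E2 2 h replicate 3), 3 to 13 for the 24 h difference (lowest without WT vehicle replicate 1), 0 to 0 for WT E2 against IGF1 at 24 h and 3 to 6 for WT IGF1 24 h against 2 h (lowest without WT IGF1 2 h replicate 3). For 18 of the 44 genes all group means were at the floor, so their differences have no known size.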
